A study of Oryza sativa with 6 samples.

Results

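Among the 37863 gene loci counted in rice root tips, 200 were singled out because the 3 control libraries disagreed about them most strongly in 1 direction. Each had at least 20 CPM (counts per 1000000 counts of the library) in control replicate 2, less in control replicate 1 and least in control replicate 3. Of 9495 loci with at least 20 CPM in control replicate 2, 3443 (36.3%) had this order, and the 200 are those with the largest ratio of control replicate 2 to control replicate 3, after 1 CPM was added to both. These ratios ran from 2.87 to 19.4 with a median of 3.53. The control values therefore chose the loci, and they are given below as a description without a test. The 3 co-cultivated libraries played no part in the choice.

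The study asked how rice roots respond to Azolla filiculoides, a floating fern that houses nitrogen-fixing cyanobacteria. Seedlings of the cultivar Kitaake were 13 days old when 4 at a time went into a hydroponic box of Yoshida nutrient solution, which was not aerated and whose walls were wrapped in foil. In the co-cultivated group living fern floated on the solution, and in the control group rice stood alone under a cover that kept algae out, so that fern and cover cannot be told apart. RNA was taken at 15 DAT (the labels' time unit) from the last 1 cm of the roots. Each group held 3 libraries of poly-A RNA, described by the labels as biological replicates. The whole set-up was run 3 times, and which run a library came from is not given in the sources used here, so the p-values below measure the spread between these libraries alone. Library totals lay between 21551508 and 25120456 estimated counts.

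The last centimetre of a rice root holds several zones in series. At the tip lies the meristem, where cells copy their DNA and divide around a small group of slowly dividing stem cells. Behind it cells stop dividing and elongate, for which expansins loosen their walls, and further back the endodermis lays down its Casparian strip, root hairs grow out and xylem vessels build cellulose-rich secondary walls. In bulk RNA, fewer cells of a type and less RNA per cell cannot be told apart.

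Of the 200 members, 16 could be given a gene symbol and 184 could not. The deposited table holds locus identifiers without names, so symbols rest on recalled pairs of symbol and locus whose chromosome and order were checked against the gene table of another rice assembly. None of the 10 members with the largest ratios has a symbol. By role the named members comprise 5 genes of DNA replication and mitosis (MCM3, MCM4, MCM6, RPA1B and CYCB2-2), 6 expansins (EXPA1, EXPA3, EXPA4, EXPA12, EXPA28 and EXPB11), the endodermal gene CASP1, the auxin carrier PIN2, the brassinosteroid enzyme DWARF4, the cell-wall invertase CIN2 and the endoplasmic reticulum chaperone BIP1. Values that were not whole numbers, as arise when reads are divided between similar loci, occurred in 21 members (10.5%) and in 11.2% of the loci with at least 20 CPM in control replicate 2. The loci Os11g0323860 and Os11g0412484 held identical values in all 6 libraries, so the reads of both cannot be separated and they amount to 1 measurement.

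In the co-cultivated libraries, the members took levels between the control extremes. Their summed share of all counts was 1.51%, 2.75% and 0.664% in control replicates 1, 2 and 3, and 1.80%, 1.96% and 1.59% in co-cultivated replicates 1, 2 and 3. All 3 co-cultivated shares thus lay between control replicates 1 and 2, and their span was much narrower than that of the controls. On a log2(CPM + 1) scale that puts a member's level in control replicate 3 at 0 and in control replicate 2 at 1, the median position was 0.55 in control replicate 1, 0.64 in co-cultivated replicate 1, 0.78 in co-cultivated replicate 2 and 0.59 in co-cultivated replicate 3. Within the control range lay 172, 134 and 175 of the 200 members in co-cultivated replicates 1, 2 and 3, and 123 members (61.5%) were inside it in all 3. Over the 11226 loci with at least 20 CPM in a library, 22.7% were inside it in all 3, but the members' control range is wide because the rule asked for that.

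**Figure D1:**
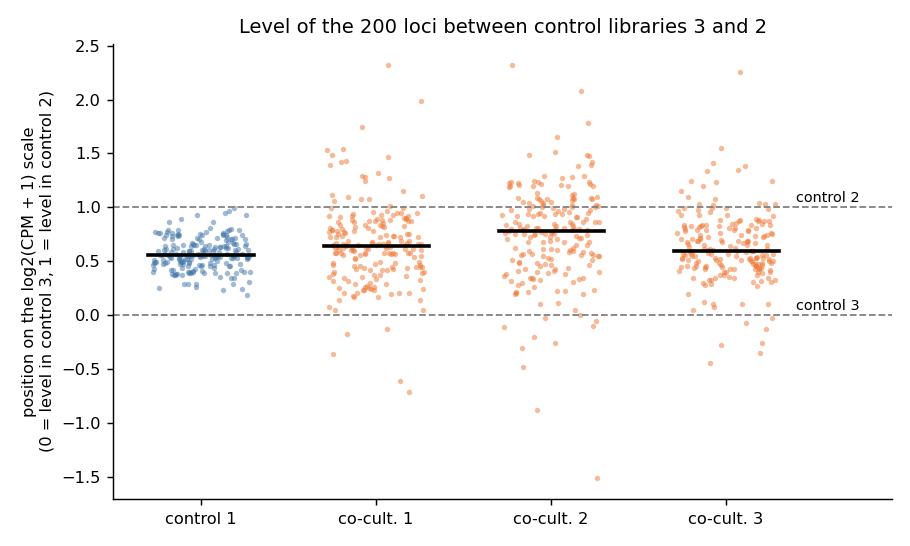
Position of each of the 200 members (points) in control replicate 1 (blue) and in the 3 co-cultivated libraries (orange) on a log2(CPM + 1) scale on which 0 is the member's level in control replicate 3 and 1 its level in control replicate 2 (dashed lines). Black bars are medians, from 0.55 in control replicate 1 to 0.78 in co-cultivated replicate 2; most points of every library lie between the dashed lines.

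The members were also ordered among the co-cultivated libraries. Co-cultivated replicate 2 was the highest of the 3 for 120 members (60.0%), against 40.1% of the 11226 loci. Co-cultivated replicate 3 was the highest for 20 members (10.0%), against 34.7%. Members were thus more often at their highest in the library numbered 2, as in the control group, and seldom in the library numbered 3. The lowest library was co-cultivated replicate 1 for 93 members (46.5%), against 38.8% of the 11226 loci, and co-cultivated replicate 3 for 74 (37.0%), against 22.2%. With TMM-scaled CPM the ranking of these turned, to 78 members (39.0%, against 29.3% of the 11226 loci) for replicate 1 and 87 (43.5%, against 31.99%) for replicate 3. The order of the controls (2 above 1 above 3) recurred in 38 members (19.0%; 14.1% of the 11226 loci), and the most frequent order was 2 above 3 above 1, in 82 (41.0%; 26.0%). Another set of 200 loci was chosen by the reverse rule (at least 20 CPM in control replicate 3, which was above 1, which was above 2). Its co-cultivated order was 3 above 1 above 2 in 80 loci (40.0%), against 21.9% of the 11226 loci and 9 members (4.5%). The range of a member over the 3 co-cultivated libraries had a median of 0.63 on the log2(CPM + 1) scale, against 0.33 over the 11226 loci, so the members also varied more in libraries the rule did not use. Whether and why libraries with the same number resemble each other was not tested.

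**Figure D2:**
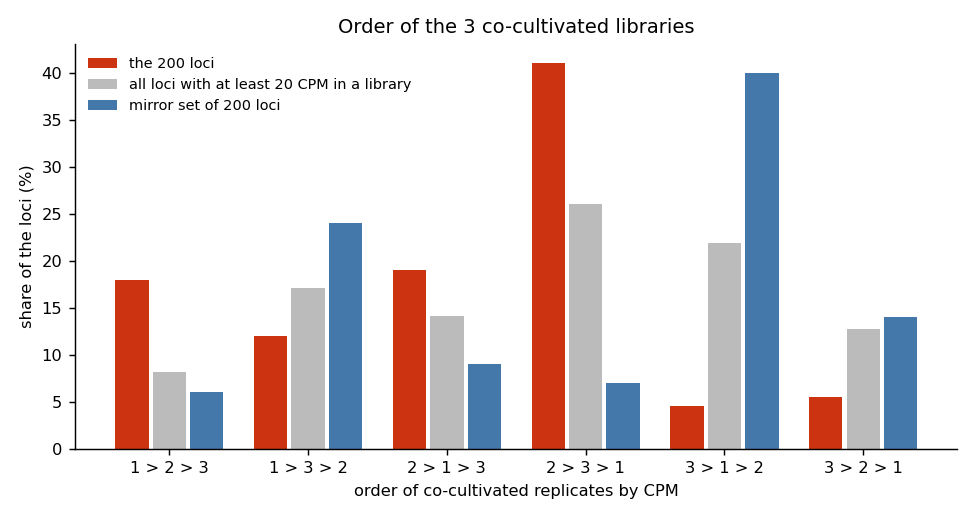
Share (%) of loci with each of the 6 possible orders of the co-cultivated libraries by CPM, for the 200 members (red), the 11226 loci with at least 20 CPM in a library (grey) and the mirror set of 200 loci chosen by the reverse rule (blue). The members peak at 2 > 3 > 1 with 41.0% and the mirror set at 3 > 1 > 2 with 40.0%.

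The pair of loci with the strongest contrast lies on chromosome 10. Os10g0551800, with the largest ratio, had 72.9, 159 and 7.26 CPM in control replicates 1 to 3 and 94.9, 107 and 65.2 CPM in co-cultivated replicates 1 to 3. Os10g0109300, with the next largest, had 84.8, 226 and 13.9 CPM in the controls and 490, 236 and 337 CPM in the co-cultivated libraries. The first stayed inside its control range in every co-cultivated library, whereas the second was above all controls in every one. Os10g0453900 and Os10g0454200 follow each other directly in the list of loci and both are members. The former had 328, 695 and 55.0 CPM in the controls and 270, 250 and 154 CPM in the co-cultivated libraries. The latter had 1012, 2692 and 332 CPM in the controls and 610, 567 and 609 CPM in the co-cultivated libraries. On the log2(CPM + 1) position scale the former was at 0.63 and 0.60 in co-cultivated replicates 1 and 2, nearer to control replicate 2, and the latter was nearer to control replicate 3 in every co-cultivated library. In all, 17 members (8.5%) are on chromosome 10, which holds 4.93% of the loci with at least 20 CPM in control replicate 2. In 8 pairs, 16 members lie within 5 loci of another member, against 31 of the 200 loci of the reverse set. The same count was not made over all loci, and whether members cluster was not tested. The last 3 loci inside the set had ratios of 2.867, 2.866 and 2.865, and the first 3 outside it 2.862, 2.859 and 2.856, so that the end of the set is not a natural break.

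The members with a symbol that act in DNA replication and mitosis ranked from 117th (MCM4) to 180th (MCM6). The 184 members without a symbol may hold more such genes at any rank. MCM3, MCM4 and MCM6 encode subunits of the ring-shaped helicase that opens DNA at replication origins. MCM4 had 39.2, 73.5 and 21.3 CPM in control replicates 1 to 3, and 27.3, 37.9 and 37.0 CPM in co-cultivated replicates 1 to 3. MCM3 had 31.1, 76.8 and 23.4 CPM, and 31.6, 37.7 and 29.7 CPM. MCM6 had 34.2, 61.0 and 20.1 CPM, and 25.3, 31.4 and 28.7 CPM. In all 3, control replicate 2 stood well above the other 5 libraries, and the co-cultivated libraries lay within the control range. The other subunits of the ring missed the threshold at ratios of 2.14 (MCM2), 2.82 (MCM5) and 2.67 (MCM7). RPA1B, a large subunit of the protein that coats exposed strands of DNA during replication, had 51.9, 88.2 and 29.2 CPM, and 49.8, 64.6 and 52.5 CPM. CYCB2-2, a B-type cyclin that acts at entry into mitosis, had 33.7, 68.9 and 21.8 CPM, and 32.2, 38.7 and 36.9 CPM. Both were again highest in control replicate 2 and inside the control range in every co-cultivated library.

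Most genes on the lists for cycling cells, which were not picked for being members, shared the control order of the set. Of 26 S phase genes, 20 had the order 2 above 1 above 3 and none had the reverse, and their median ratio of control replicate 2 to 3 was 2.03. Of 10 genes of mitosis and G2, 8 had that order and none the reverse, with a median ratio of 2.03. Counting only genes with at least 20 CPM in control replicate 2, the order was found in 19 of 24 from both lists (79.2%), against 36.3% of all such loci, whose median ratio was 1.10. These counts and medians include the members MCM3, MCM4, MCM6 and CYCB2-2, whose order and large ratios were set by the rule. PCNA, the sliding clamp of the replication fork, had a ratio of 2.28, and CYCB1-1, another B-type cyclin, 2.52. Other listed genes had ratios near 1, such as RFC2 (1.06), PSS1 (1.08) and SRS3 (1.13). RFC1 (0.914) and ORC5 (0.971) were below 1, and RFC1 was highest in control replicate 3, at 70.1, 79.4 and 87.0 CPM in the controls. Summed over the S phase list, the level was 641, 1040 and 539 CPM in the controls and 526, 678 and 599 CPM in the co-cultivated libraries. Of the checked genes, 3 of the S phase list and 1 of the mitosis list reached the set. Of 8 genes that set the pace of the cycle (cyclin-dependent kinases of type A, their KRP inhibitors and a D-type cyclin), 4 had at least 20 CPM in control replicate 2. All 4 had the control order, with a median ratio of 1.32.

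Of the 5 checked regulators of the stem cell niche, 4 had the control order and none the reverse. SCR1 and SCR2, transcription factors of the niche and endodermis, had ratios of 1.23 and 1.27, and SHR1 and SHR2, which act with them, 1.55 and 1.77. Of these, SHR1 alone reached the 20 CPM that the rule asked of control replicate 2. QHB, which marks the quiescent centre, was at 1.24, 0.464 and 0.253 CPM in control replicates 1 to 3, too low to rank. At the level of QHB the added 1 CPM draws the ratio towards 1. S phase genes under 20 CPM in control replicate 2 had ratios that differed widely, such as 2.78 for ORC6 and 1.25 for ORC4. Whether the niche genes differ from the cycling genes in this ratio was not tested. Whether the share of meristem in the samples varied was not tested.

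CASP1 places an endodermal gene among the members, at rank 20. It encodes a scaffold protein of the Casparian strip, the barrier of the endodermis, which forms behind the meristem. Its level was 135, 220 and 34.7 CPM in control replicates 1 to 3, and 169, 128 and 99.5 CPM in co-cultivated replicates 1 to 3. Control replicate 3 was the lowest of the 6 libraries, and the co-cultivated libraries lay within the control range. LSI1 and LSI2, silicon transporters of the endodermis and exodermis, had ratios of 2.06 and 1.38 without being members. Among the controls, LSI2 was highest in replicate 1. Both genes were above every control in all 3 co-cultivated libraries, and neither was called (edgeR adjusted p = 0.147 and 0.123).

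Expansins, a list added because members were seen among them, are the largest named family in the set, with 6 members of 43 listed genes. EXPA12, an alpha-expansin ranked 15th, had 12.5, 35.2 and 4.18 CPM in the controls and 17.5, 33.6 and 13.3 CPM in the co-cultivated libraries. EXPA3 had 46.9, 97.2 and 18.7 CPM, and 51.1, 26.4 and 37.9 CPM. EXPA12 repeated the control order among the co-cultivated libraries, whereas EXPA3 was lowest in co-cultivated replicate 2. EXPA4 had 31.1, 41.2 and 9.58 CPM, and 31.5, 57.1 and 40.9 CPM. EXPA28 had 15.4, 21.5 and 5.70 CPM, and 14.0, 16.4 and 11.7 CPM. The beta-expansin EXPB11 had 70.6, 119 and 35.1 CPM, and 41.7, 59.4 and 53.6 CPM. Of these 3, EXPA4 passed its control maximum in co-cultivated replicate 2 alone, and the others stayed inside their control range throughout. EXPA1 had 39.0, 39.5 and 11.3 CPM in the controls and 65.6, 101 and 62.9 CPM in the co-cultivated libraries, so that the groups did not overlap. Of the 18 listed expansins with at least 20 CPM in control replicate 2, 12 (66.7%) had the control order, 2 had the reverse and the median ratio was 1.73. The 12 include the 6 members, whose order and large ratios were set by the rule. Of all loci at that level, 36.3% had the order. Over all 43, of which many were low, 19 had the order and 9 the reverse. EXPB7 had a ratio of 0.22 and EXPB3 of 0.475.

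**Figure D3:**
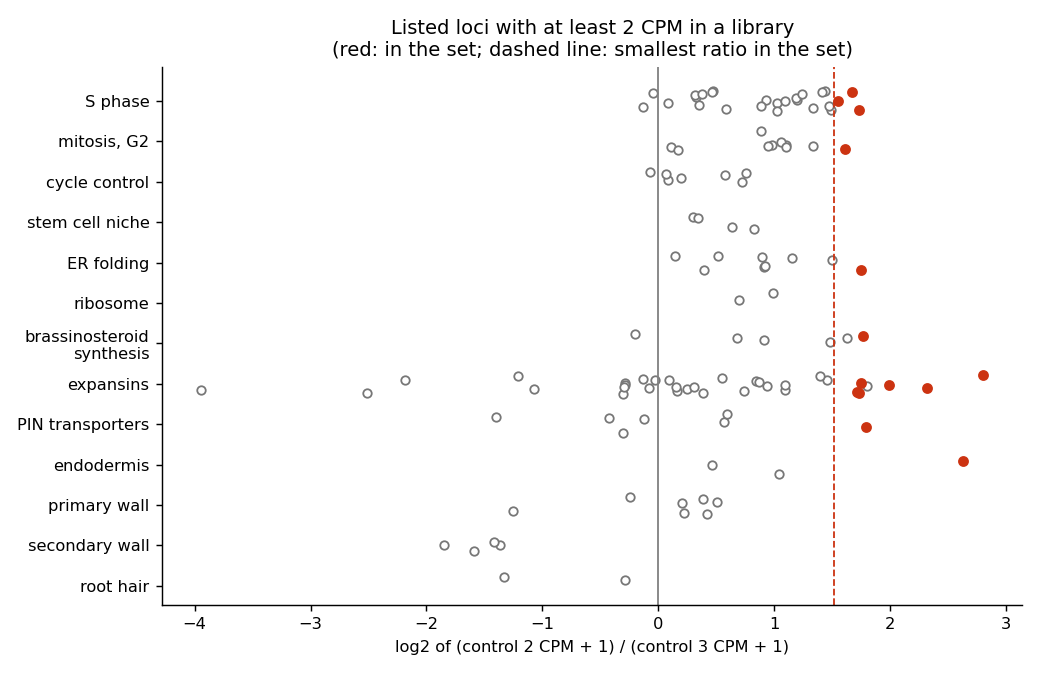
Ratio of control replicate 2 to control replicate 3 (log2 scale, 1 CPM added to both) for each listed gene with at least 2 CPM in a library, by list. Red points are members, open points are not, and the dashed line marks the smallest ratio in the set; vertical scatter within a list carries no value. Every secondary wall gene lies left of 0, while most S phase and mitosis genes lie between 0 and the dashed line.

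Hormone and sugar genes among the members were PIN2, DWARF4 and CIN2. PIN2, an auxin efflux carrier of the root tip, had 34.4, 62.7 and 17.4 CPM in control replicates 1 to 3, and 53.5, 80.6 and 57.1 CPM in co-cultivated replicates 1 to 3. It was highest in the libraries numbered 2 of both groups. DWARF4, an enzyme of brassinosteroid synthesis, had 39.0, 70.5 and 19.997 CPM, and 46.9, 21.2 and 33.0 CPM. CIN2, which splits sucrose in the cell wall, had 161, 221 and 61.6 CPM, and 136, 107 and 93.4 CPM. Neither DWARF4 nor CIN2 was highest in co-cultivated replicate 2, where DWARF4 was at its co-cultivated lowest. With at least 20 CPM in control replicate 2, all 3 of 3 PIN genes had the control order, with a median ratio of 1.51. Of 4 such brassinosteroid synthesis genes 3 had it and none the reverse, with a median ratio of 2.20. Over all levels the order was found in 3 of 8 PIN genes, with 2 reversed, and in 5 of 6 brassinosteroid synthesis genes. Of all loci with at least 20 CPM in control replicate 2, 36.3% had the order. The counts include PIN2 and DWARF4, whose order was set by the rule, and both lists were added after member values were seen.

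BIP1 is the main chaperone of the endoplasmic reticulum lumen, where secreted proteins fold. It had 404, 1011 and 299 CPM in control replicates 1 to 3, and 496, 742 and 599 CPM in co-cultivated replicates 1 to 3. Control replicate 2 was the highest library and co-cultivated replicate 2 the next. The protein disulfide isomerases and ERDJ3B, which help proteins fold in the same compartment, had the control order with smaller ratios, from 1.11 (PDIL5-1) to 2.84 (ERDJ3B). All 9 folding genes with at least 20 CPM in control replicate 2 had that order, against 36.3% of all such loci. BIP1 is among the 9 and had the order by the rule, and the folding list was added after member values were seen. The ribosomal protein genes RPL5A and RPL5B also had the control order, with ratios of 1.62 and 1.98.

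Secondary wall genes of the xylem had the opposite order. The secondary wall cellulose synthases CESA4, CESA7 and CESA9 and BC1, a protein needed for cellulose assembly, were all highest in control replicate 3 and lowest in control replicate 2, with ratios from 0.277 to 0.389. Their summed level was 738, 437 and 1206 CPM in the controls and 999, 875 and 1079 CPM in the co-cultivated libraries. The primary wall list, mostly cellulose synthases of growing cells, had a median ratio of 1.16. The root hair gene CSLD1, a cellulose-synthase-like protein of root hair growth, was at 14.6, 6.87 and 18.8 CPM in the controls. In the co-cultivated libraries it was at 45.9, 51.2 and 26.4 CPM. CSLD1 and BC1 were above every control in all 3 co-cultivated libraries, and neither was called (edgeR adjusted p = 0.0847 and 0.114). CESA4, CESA7 and CESA9 lay within their control range there. The member share and the secondary wall level thus ran in opposite orders across the 3 controls, and the part of mature tissue in the members' levels was not tested.

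**Figure D4:**
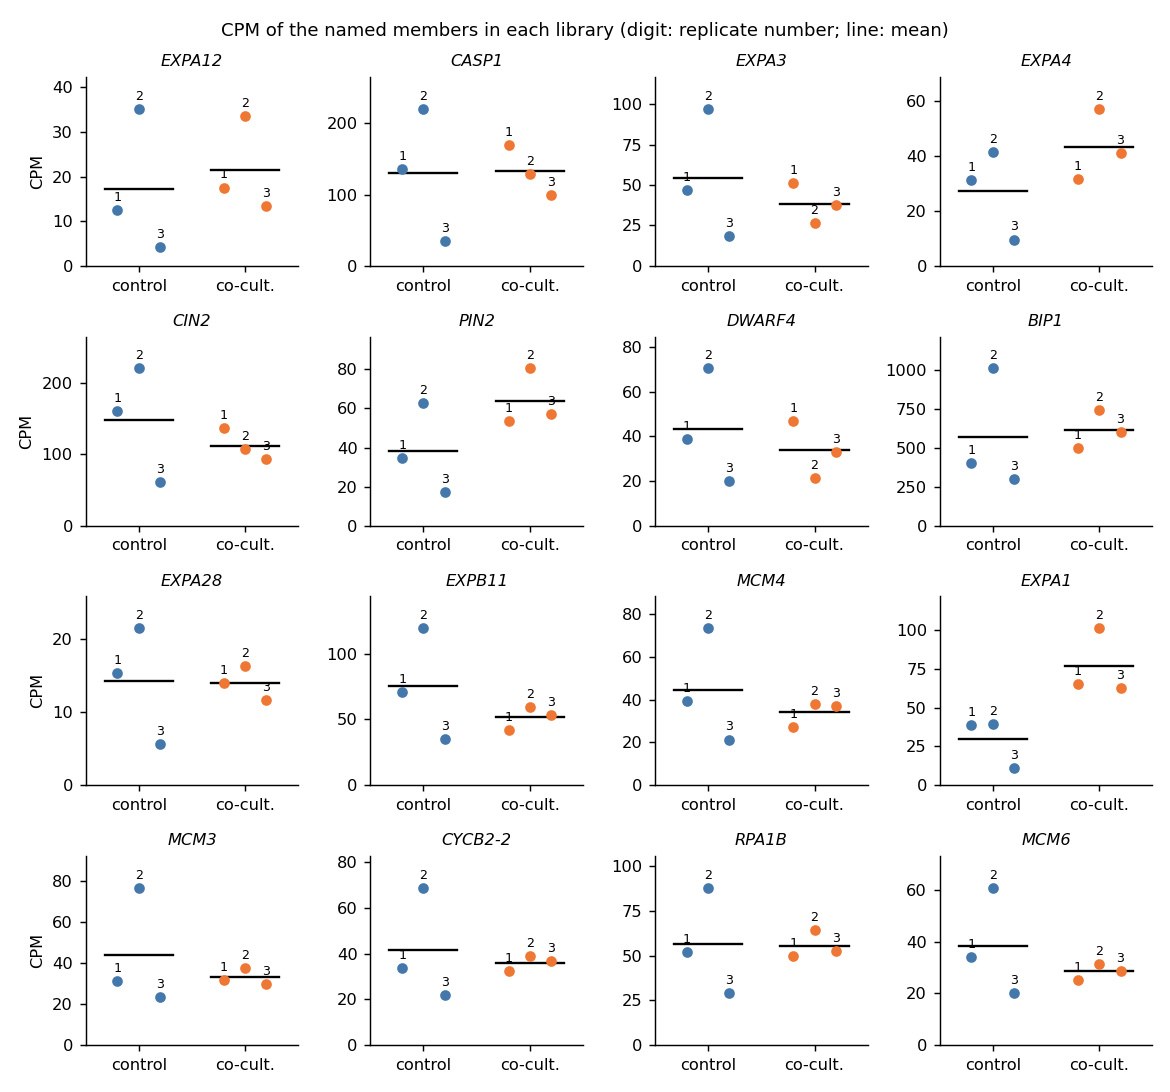
CPM of the 16 named members in every library, each panel with its own axis starting at 0. Points are libraries (blue control, orange co-cultivated, digit the replicate number) and the black line is the mean of 3; in each panel the control libraries fall in the order 2, 1, 3, and EXPA1 has no overlap between the groups.

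Co-cultivated and control libraries were then compared locus by locus. A locus counts as called when its edgeR quasi-likelihood adjusted p (Benjamini-Hochberg over the 24615 loci tested) is under 0.05. All 200 members were tested, and 1 rose and 1 fell, where 1.46% of all loci tested were called higher and 1.17% lower. At an unadjusted p under 0.05 there were 19 members, 11 higher and 8 lower, against 20.4% of all loci. The members' log2 fold changes had a median of 0.17 (quartiles −0.21 and 0.50), against −0.03 (−0.31 and 0.30) over all loci. Because the members were chosen for their spread between controls, the standard errors of these fold changes were large, with a median of 0.46 against 0.19 over the 11224 tested loci with at least 20 CPM in a library. A low count of calls in such a set says little about whether the members differ between the groups.

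**Figure D5:**
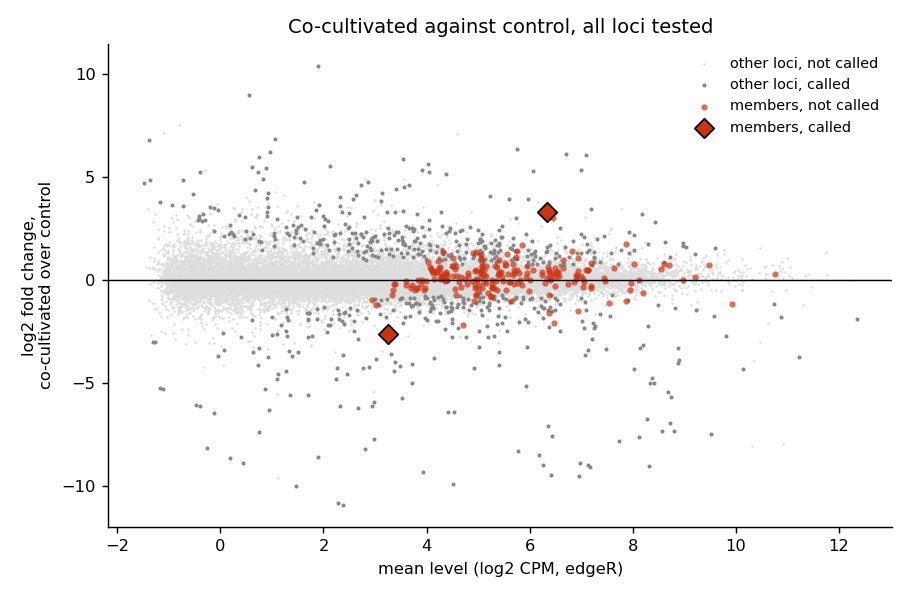
Log2 fold change of co-cultivated over control libraries against mean level (log2 CPM) for the 24615 loci tested. Grey points are other loci (dark where called), red points are the members and diamonds the 2 called members, 1 higher and 1 lower; the remaining members lie mostly near 0.

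The member called higher was Os01g0895200, whose function is not annotated in the sources used here. It had 16.0, 23.3 and 5.15 CPM in control replicates 1 to 3 and 148, 149 and 137 CPM in co-cultivated replicates 1 to 3. The groups were far apart, and the co-cultivated libraries hardly differed. Its mean rose from 14.8 ± 9.15 CPM (SD, n = 3) to 145 ± 7.18 CPM (n = 3). On the log2 scale it rose by 3.32 ± 0.49 (SE), with an edgeR adjusted p of 0.0218. The member called lower was Os12g0125800, with 15.1, 26.8 and 7.17 CPM in the controls and 2.40, 1.76 and 3.74 CPM in the co-cultivated libraries. Again the groups did not overlap. Its mean fell from 16.4 ± 9.86 CPM (SD, n = 3) to 2.63 ± 1.01 CPM (n = 3). On the log2 scale it fell by 2.61 ± 0.51 (SE), with an edgeR adjusted p of 0.0478. In all 6 libraries its value was not a whole number, as arises when reads are divided between similar loci. Both calls were lost in most fits that left out 1 library, as were many calls over all loci. In such fits, between 55 and 246 of the 360 loci called higher stayed called. Of the 288 called lower, between 83 and 271 did. For Os01g0895200 the edgeR adjusted p was 0.11 without control replicate 1, and 0.0904, 0.0524 and 0.0557 without co-cultivated replicates 1, 2 and 3. For Os12g0125800 it was 0.135 and 0.052 without control replicates 1 and 2, and 0.192, 0.121 and 0.0902 without co-cultivated replicates 1, 2 and 3.

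Over loci with at least 20 CPM in a library, deviations from the group mean correlated weakly between same-numbered libraries (0.16, 0.259 and 0.23). Co-cultivated replicate 1 correlated as well with control replicate 3 (0.165). A replicate block in the edgeR fit changed which members were called. With the block, 3 members were called higher and 0 lower, against 1.64% and 1.2% of all loci tested. Os01g0895200 remained called (edgeR adjusted p = 0.0242 with the block), and Os12g0125800 did not (edgeR adjusted p = 0.0953 with the block). Os04g0629200 was added, with 19.4, 33.7 and 5.74 CPM in the controls and 172, 203 and 84.4 CPM in the co-cultivated libraries. Its log2 difference between the groups was 3.01 ± 0.64 (edgeR adjusted p = 0.0585 without the block and 0.0124 with it), and it was above every control in all 3 co-cultivated libraries. The third member called with the block, Os03g0368300, differed by 1.69 ± 0.61 on the log2 scale (edgeR adjusted p = 0.181 without the block and 0.0264 with it). Its values were likewise not whole numbers in all 6 libraries. DESeq2 called 9 members higher and 4 lower, against 5.42% and 3.42% of all loci it tested.

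The rule gave the members a wide control range, which makes it harder for co-cultivated libraries to lie outside it. In 12 members (6.0%) all 3 co-cultivated libraries were above every control, against 11.7% of all loci tested. In 3 members (1.5%) all were below, against 16.7%. Among the named members only EXPA1 was in either group. Its mean was 29.9 ± 16.1 CPM in the controls and 76.7 ± 21.5 CPM with the fern (SD, n = 3), which on the log2 scale is a difference of 1.39 ± 0.46 (SE) that did not pass the threshold (edgeR adjusted p = 0.152). The other named members had log2 fold changes from −0.51 ± 0.40 (EXPB11) to 0.77 ± 0.43 (PIN2), none called.

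The direction of the cycling-cell lists hung on 1 control library. Of the 26 S phase genes 24 had a negative log2 fold change, with a median of −0.24, and none was called by edgeR or DESeq2. Of the 10 mitosis genes 6 had a negative one, with a median of −0.12; edgeR called none and DESeq2 called 1, PSS1, lower. Without control replicate 2, only 9 of the 26 and 3 of the 10 were negative, and the medians were 0.10 and 0.24. The members MCM3, MCM4, MCM6 and CYCB2-2 are among these genes. The rule chose them for a high control replicate 2, so leaving that library out raises their log2 fold changes by construction. They were at −0.38 ± 0.42, −0.36 ± 0.41, −0.40 ± 0.36 and −0.18 ± 0.38 with all libraries, and positive without it.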

How the data were processed

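The deposited table gives 1 column of estimated counts per library for 37863 loci, tied to samples by the column name in the labels, with 0 columns left over. Between 1343 and 1409 loci per library hold a value more than 1e-06 from a whole number. DESeq2 1.28.1 and the genome build IRGSP-1.0 are named per the submitters' processing notes; which aligner, counting tool and strand setting the authors used is not given in the sources used here. The authors' deposited estimated counts were turned into whole numbers by rounding for the count-based tests.

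CPM by column total chose the members and gave all levels. Co-cultivated and control libraries were compared under R 4.3.3 by edgeR 4.0.16 (TMM scaling, filterByExpr, quasi-likelihood F test, two-sided, 4 residual degrees of freedom, 24615 loci). The SE printed with a log2 fold change was derived from that test, as the absolute fold change divided by the square root of its F value. The test was tried on simulated counts. Alternatives were DESeq2 1.42.0, limma-voom (limma 3.58.1), other factors and filters, a replicate block and leaving out each library. Replicates differed by far more than sampling noise (chi-square per locus 21.7 to 113), so none was merged. Over expressed loci, deviations from the group mean correlated at 0.16, 0.259 and 0.23 between same-numbered libraries of the groups. The labels do not say what a number marks. These correlations are the reason that a fit with a replicate block is given beside the main fit, which did not pair libraries. Co-cultivated replicate 1 correlated as well with control replicate 3 (0.165).

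The members and lists were chosen with earlier results of these data known. Of 137 pairs of symbol and locus listed first, 60 passed the check by chromosome and order; of 85 pairs in the expansin, PIN, folding, brassinosteroid, primary wall and single-gene lists, added after member values were seen, 78 passed, and some of these were recalled after symbols had been seen in the gene table of ASM3414082v1. No histone pair passed, so none is named. Named genes were members with a symbol, extremes by ratio and level, called members, and listed genes outside the set. No promoter or protein sequence was used here, so the planned search for promoter motifs was not run.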

Additional observations from a re-analysis of the deposited data

How the results depend on the processing

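Calls changed with the tool and when 1 library was left out, and the cause was not tested. edgeR called 360 loci higher and 288 lower over all loci tested, of which 1 and 1 were members. DESeq2 called 1486 higher and 938 lower, of which 9 and 4 were members. Without the low-count filter 2 members were called higher. limma-voom called 0 members lower. With the replicate block 3 members were called higher and 0 lower, and no member with a symbol was called. With 1 library left out, the calls over all loci ran from 56 to 361 higher and from 83 to 493 lower, and those of members from 0 to 5 higher and from 0 to 2 lower. The lowest value of all loci called higher came without co-cultivated replicate 1, and the most members called higher without control replicate 2. The set itself shared 121 members with one that asked for at least 50 CPM in control replicate 2, and between 153 and 199 with the other 5 rules tried. Under TMM-scaled CPM the co-cultivated order 3 above 2 above 1 was found in 5 members in place of 11; the other orders and the counts inside and outside the control range stayed within 1.5 times.

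The sign of a small log2 fold change followed the library left out, and none of these genes was called. The ranges over the 6 fits were −0.13 to 1.41 for EXPA12, −0.39 to 0.68 for CASP1, −0.87 to 0.26 for EXPA3, −0.73 to 0.051 for CIN2, −0.66 to 0.22 for DWARF4, −0.18 to 0.83 for BIP1, −0.36 to 0.45 for EXPA28, −0.70 to 0.20 for MCM4, −0.68 to 0.30 for MCM3, −0.48 to 0.40 for CYCB2-2, −0.30 to 0.49 for RPA1B and −0.71 to 0.10 for MCM6. Without scaling factors EXPA28 was at −0.017 and RPA1B at −0.020. EXPA4, PIN2, EXPB11 and EXPA1 kept their sign in all 6. Chosen after seeing the data, the same fits put the median of the folding list between −0.14 and 0.43. The changes of the S phase and mitosis lists without control replicate 2 stand with the comparison. The large spread between controls and 3 libraries per group limit what could be called among these loci.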
